A study of Chlorella vulgaris with 6 samples.

Results

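Of 18600 assembled transcript features measured in the green alga Chlorella vulgaris, 82 had a lower level in the mutant UV-715 than in both the wild type and the mutant EMS-25, while the latter strains differed little from each other. The 82 were chosen on the deposited values themselves. A feature was a member if its mean over the 6 libraries was at least 30, if the lowest of the 4 wild-type and EMS-25 values was at least 1.5 times the higher UV-715 value, and if the larger of the wild-type and EMS-25 means exceeded the smaller by less than 25%. The size of the fall in UV-715 is therefore given below as a description, and no test of it is offered as support. The members made up 0.441% of all features and 1.68% of the 4891 features whose mean reached 30.

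All 6 libraries came from Chlorella vulgaris SAG 211-12, with 2 libraries each of the wild type, UV-715 and EMS-25. The wild type is the culture-collection strain. UV-715 came from mutagenesis with UV light of 254 nm, after which single colonies were picked, and EMS-25 is named for EMS (ethyl methanesulfonate, a DNA-alkylating mutagen), whose treatment the labels do not describe. Both mutants are presented by the study's title as high-lipid strains, and each is a single isolate, so that the mutagen and the isolate cannot be told apart. Polyadenylated RNA was taken after 14 days in Bold's Basal medium under continuous light, in stationary phase at an optical density of 5, and sequenced as paired reads of 75 bp. Libraries of a strain are labelled biological replicates, but none is tied to its own culture, so that any p-value below measures the spread between these libraries, which may be partly technical.

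Mutagens such as UV light and alkylating agents leave many changes scattered over a genome, and a mutant picked for a trait carries the changes that gave the trait together with others that did not. A lower transcript level can follow from lower transcription, faster decay, a lost gene copy or a changed regulator, and RNA-seq measures only the resulting level. In stationary phase, green algae commonly slow division and shift carbon into storage compounds such as starch and triacylglycerol. The files pair no feature with a gene name, so no role is assigned to any of the 82, and at most 2 features that fell and 2 that rose are named by ID.

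The values are a normalised expression signal, whose sums over all features lay between 970974 and 1029717. Absolute depth is not known. Relative depth, read from the steps between low values, of replicates 1 and 2 was 1.0 and 0.245 for the wild type, 1.05 and 0.495 for UV-715 and 0.988 and 0.397 for EMS-25. The replicate 2 libraries were thus the shallower ones in each strain, and the shallowest was of wild type. Between 1376 and 4177 features were listed at 0 in a library, but no member was listed at 0 in either UV-715 library, and the lowest UV-715 value of any member was 6.15.

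Members ranged in mean level from 30.6 to 4620, with a median of 64.0. In UV-715 a member stood at 11.7% to 63.7% of its wild-type mean, with a median of 47.1%. The wild-type mean was 1.57 to 8.52 times the UV-715 mean (median 2.12), and the EMS-25 mean was 1.56 to 8.16 times the UV-715 mean (median 2.03). The set was thus made mostly of moderate reductions rather than of transcripts lost from UV-715. In 39 members both ratios reached 2, and in 5 members both reached 3. On the stricter measure that the choice used, the lowest wild-type or EMS-25 value over the higher UV-715 value, 20 members reached 2, 7 reached 2.5 and 2 reached 3.

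**Figure D1:**
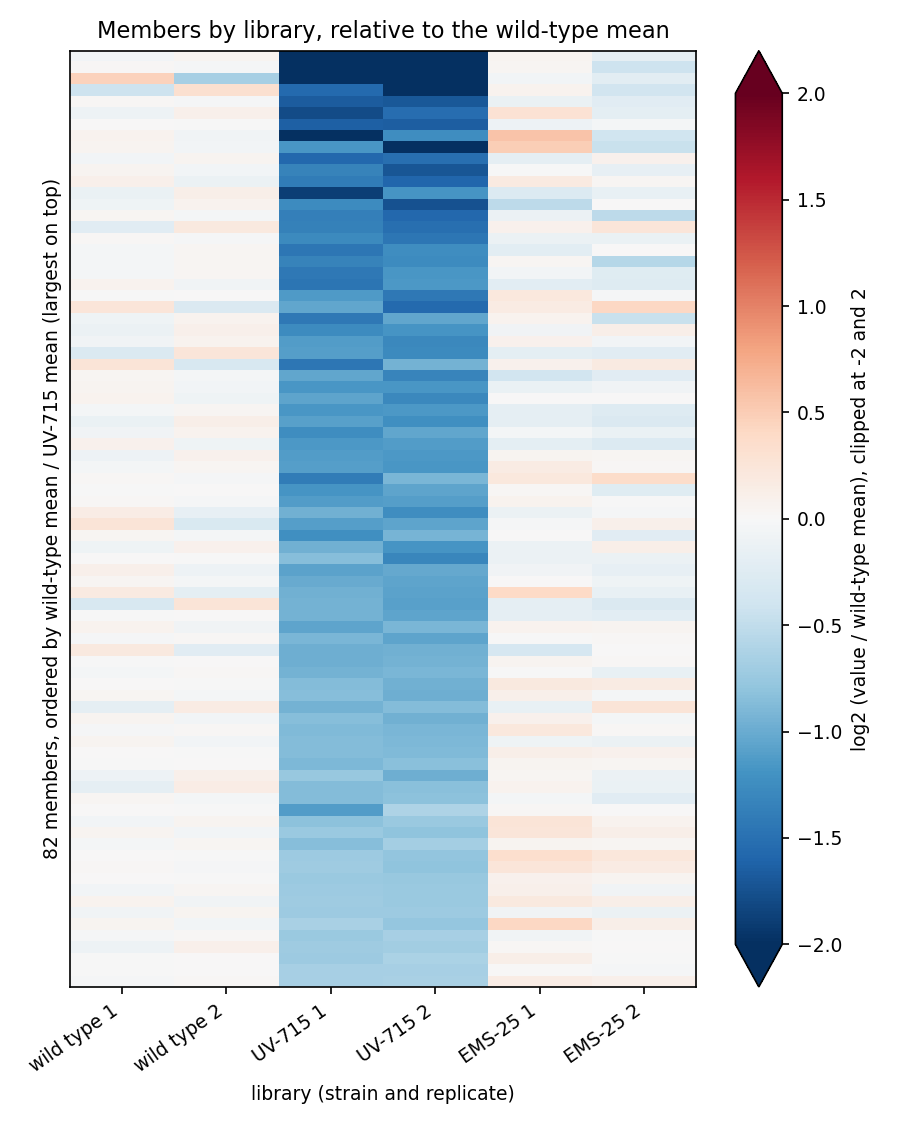
Each row is 1 of the 82 members and each column 1 library. Colour gives the log2 of the library's value over the member's wild-type mean, clipped at -2 and 2. Rows are ordered by the wild-type mean over the UV-715 mean, which runs from 8.52 at the top to 1.57 at the bottom. The UV-715 columns are low in every row, as the choice of members required, and the EMS-25 columns stay near the wild type.

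The most abundant member, TRINITY_DN6854_c0_g1, had values of 6111 and 5269 in the wild-type libraries, 2168 and 1888 in those of UV-715 and 6463 and 5821 in those of EMS-25. It was the eighth most abundant of all 18600 features. Both UV-715 libraries were below the other 4, as the choice required of every member, and the wild-type and EMS-25 libraries overlapped. Its mean was 5690 ± 595 in wild type, 2028 ± 198 in UV-715 and 6142 ± 454 in EMS-25 (SD, n = 2 each). The UV-715 mean was 35.6% of the wild-type mean, the deepest fall among the 5 members with a mean of at least 1000.

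The second most abundant member had 4734 and 4386 in the wild-type libraries, 2527 and 2344 in those of UV-715 and 4833 and 4449 in those of EMS-25. It replaced TRINITY_DN6854_c0_g1 as the highest member within UV-715. The third had 3541 and 3292 in the wild-type libraries, 2052 and 1952 in those of UV-715 and 4045 and 3720 in those of EMS-25. In this member both EMS-25 libraries were also above both wild-type libraries, by 1.14-fold between means.

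The fourth member had 2749 and 2614 in the wild-type libraries, 1328 and 1296 in those of UV-715 and 2702 and 2530 in those of EMS-25. The fifth had 1833 and 1747 in the wild-type libraries, 993 and 909 in those of UV-715 and 1925 and 1744 in those of EMS-25. In both, the wild-type and EMS-25 libraries overlapped, and the UV-715 mean was 48.9% and 53.1% of the wild-type mean. In the 5 most abundant members replicate 1 was the higher library in each of the 3 strains, a difference smaller than the gap to UV-715.

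Ranks 6 to 10 lay between a mean of 300 and 1000. The sixth member was the tightest of these, with 808 and 819 in the wild-type libraries, 513 and 511 in those of UV-715 and 815 and 801 in those of EMS-25, a ratio of 1.59 to the wild-type mean. The eighth had 572 and 495 in the wild-type libraries, 253 and 264 in those of UV-715 and 505 and 476 in those of EMS-25. Here the wild-type mean was 2.06 times the UV-715 mean, and the lowest other library 1.81 times the higher UV-715 library. For the seventh, the ninth and the tenth members the same ratio of means was 1.66, 1.88 and 1.90.

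**Figure D2:**
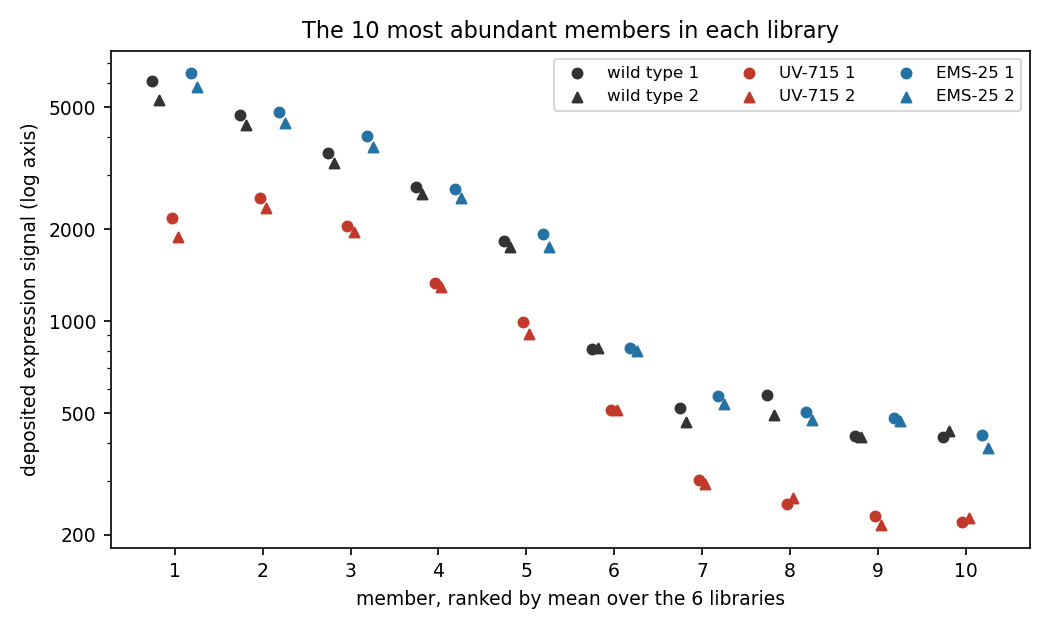
The x axis gives the 10 most abundant members by rank, and the y axis the deposited expression signal on a log scale. Each point is 1 library, with 2 for each strain. In all 10 the UV-715 points are the lowest and the wild-type and EMS-25 points lie close together, as the choice of members required. For the first member, for example, wild type had 6111 and 5269 and EMS-25 had 6463 and 5821.

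The members with the largest folds are given next, in the order of the lowest wild-type or EMS-25 value plus 1 over the higher UV-715 value plus 1. The first was TRINITY_DN3384_c0_g1, with 54.8 and 59.1 in the wild-type libraries, 7.21 and 6.16 in those of UV-715 and 58.9 and 50.2 in those of EMS-25. The UV-715 libraries did not overlap with the others, as the choice required, and the UV-715 mean was 11.7% of that in wild type. Another feature of its assembly component moved the opposite way, as described with the component mates. The second largest fold was in a member with 51.0 and 49.6 in the wild-type libraries, 8.63 and 6.15 in those of UV-715 and 51.5 and 37.7 in those of EMS-25, and this member was the only feature of its component. These were the 2 members with a fold of at least 3 on the measure the choice used.

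Of the next members by fold, 2 were well above the middle of the level range. One had 282 and 281 in the wild-type libraries, 91.0 and 89.5 in those of UV-715 and 263 and 274 in those of EMS-25. The other had 418 and 402 in the wild-type libraries, 129 and 126 in those of UV-715 and 375 and 352 in those of EMS-25. In both, the UV-715 libraries differed by far less than their distance to the other strains, with UV-715 means of 90.2 ± 1.06 and 128 ± 2.05 (SD, n = 2) at 32.0% and 31.2% of wild type.

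The fifth largest fold was less precise, because its wild-type libraries, at 86.3 and 39.5, were 2.18-fold apart, the widest replicate gap of any member. Its UV-715 values were 13.7 and 14.6, and its EMS-25 values 60.6 and 54.2. The sixth had 52.3 and 59.9 in the wild-type libraries, 16.2 and 19.5 in those of UV-715 and 68.5 and 49.1 in those of EMS-25. In both the lowest wild-type or EMS-25 library was still at least 2.5 times the higher UV-715 library. TRINITY_DN6854_c0_g1 was the seventh in this order and the eighth without the added 1, and the next 3 in this order had wild-type means 2.90, 2.85 and 2.57 times their UV-715 means.

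At the other end, 19 members had a fold under 1.6. The 3 members nearest to the threshold had folds of 1.505 to 1.508, and the 3 nearest features outside it that met the other terms had 1.491 to 1.497. In all, these 3 included, 33 features had a fold between 1.4 and 1.5 and met the other terms.

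Replicate spread was small beside the fall for most members. The choice of members favours this, as it required a gap between UV-715 and every other library. Among the 54 members with a mean below 100, the median absolute log2 ratio between the libraries of a strain was 0.12 in wild type, 0.15 in UV-715 and 0.15 in EMS-25. Among the 28 members at 100 or more it was 0.068, 0.074 and 0.092. For other features it was 0.16, 0.13 and 0.14 at a mean of 30 to 100, and 0.084, 0.067 and 0.074 at 100 or more. The members were thus not tighter than other features in UV-715 or EMS-25. Only 7 members had libraries of any strain more than 1.5-fold apart, with largest ratios of 2.18 in wild type, 1.90 in UV-715 and 1.95 in EMS-25. These 7 all had a mean below 100.

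The median fall was somewhat smaller at higher levels. The choice required a fold of at least 1.5 at every level, which holds these medians close together, and no test was made between levels. The median ratio of the wild-type to the UV-715 mean was 2.21 for the 36 members with a mean of 30 to 60 and 2.21 for the 18 members at 60 to 100. It was 2.00 for the 17 members at 100 to 300, 1.89 for the 6 at 300 to 1000 and 1.88 for the 5 at 1000 or more. The members were 1.62%, 1.70%, 1.49%, 1.81% and 3.62% of all features in these bins. The most abundant bin held 5 members among 138 features, so its higher share rests on few features.

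**Figure D3:**
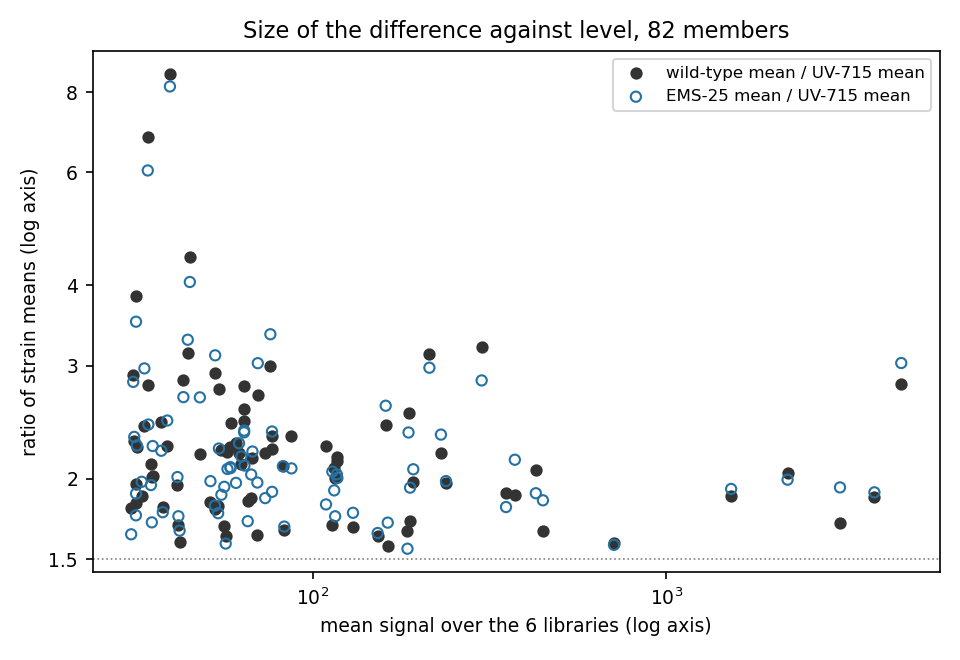
The x axis gives each member's mean signal over the 6 libraries and the y axis the ratio of strain means, both on log scales, with the wild-type mean over the UV-715 mean and the EMS-25 mean over the UV-715 mean as separate points. Most members lie near a ratio of 2 at every level (medians 2.12 and 2.03), and the highest ratios, 8.52 and 8.16, belong to a single member of low level.

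Summed over the 82 members, the signal was 28815 and 27120 in the wild-type libraries, 13904 and 13173 in those of UV-715 and 29976 and 27770 in those of EMS-25. This is 2.83% and 2.75% of the library's total for the wild type, 1.4% and 1.36% for UV-715 and 2.91% and 2.77% for EMS-25. The wild-type sum was on average 2.07 times that of UV-715, and the EMS-25 sum 2.13 times. The 5 most abundant members carried 65.2% of the difference between wild type and UV-715, and TRINITY_DN6854_c0_g1 alone carried 25.4%. The other 77 members together were 2.04-fold higher in wild type than in UV-715. A ratio above 1.5 was required of every member, so these sums describe the set and nothing is read from them.

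**Figure D4:**
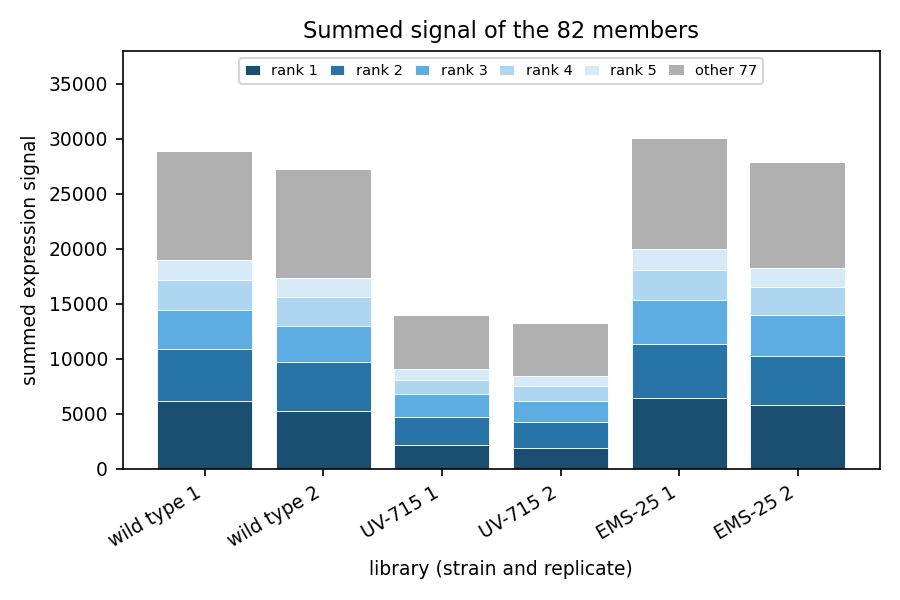
Bars give the summed expression signal of the 82 members in each library, stacked by the 5 most abundant members and the other 77. The UV-715 bars reach 13904 and 13173, and the other 4 bars lie between 27120 and 29976, with the 5 most abundant members making up 63.7% to 66.6% of a bar.

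Between wild type and EMS-25 the choice of members allowed a gap of less than 25%, and within that limit there was no common direction. The EMS-25 mean was 0.808 to 1.23 times the wild-type mean, with a median of 0.996. It was above in 40 members and below in 42, and within 10% in 53. Both EMS-25 libraries were above both wild-type libraries in 16 members and below in 15. Among all features with a mean of at least 30, on which no such limit was set, these shares were 31% and 25.3%, and nothing is read from the difference.

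The 25% limit also left out features. Of 145 features that met the level and fold terms, 63 were set aside because their wild-type and EMS-25 means lay too far apart. EMS-25 was the higher of the pair in 41 of them and the wild type in 22. The 82 thus hold 82 of the 145 features at this level that were at least 1.5-fold lower in UV-715 than in every other library.

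With the same thresholds and the strains' roles exchanged, 77 features were higher in UV-715 only, 12 were lower in EMS-25 only and 23 were higher in EMS-25 only. The median ratio to wild type was alike, at 2.12 for the 82 members and 2.05 for the 77, but the signal involved was not. The 82 members fell from 2.79% of the total in wild type to 1.38% in UV-715, whereas the 77 features took 0.875% of the wild-type and 1.81% of the UV-715 total. In EMS-25 the 82 members took 2.84% and the 77 features 0.807%. Of the 82 members, 5 had a mean of at least 1000, against 1 of the 77. These numbers describe sets picked by the same kind of threshold, and no test was made between them.

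All features were fitted together with limma on the log2 of the value plus 1, and calls were made where the p adjusted by Benjamini-Hochberg was below 0.05. All 82 members passed the filter on low values. Against wild type, 72 were called lower in UV-715, where 2.34% of all features and 7.32% of those with a mean of at least 30 were called. Against EMS-25, 68 were called lower, beside 2.77% and 8.51%. As the choice used these contrasts, the counts say only how many members the test could resolve with 2 libraries per strain, and nothing is read from them.

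Of the 82 members, 67 were called in both comparisons and 9 in neither. All 28 members with a mean of at least 100 were called in both, and the 9 not called in either had means below 100. The median log2 fold change of the members was -1.07 against wild type and -1.01 against EMS-25, beside 0.03 and 0.01 over all features tested. TRINITY_DN6854_c0_g1 had a log2 fold change of -1.49 (SE 0.10, limma adjusted p = 0.0025) against wild type and -1.60 (SE 0.10, limma adjusted p = 0.0020) against EMS-25. TRINITY_DN3384_c0_g1 had -2.92 (SE 0.16, limma adjusted p = 0.0014) and -2.85 (SE 0.16, limma adjusted p = 0.0012). Both features were chosen on these same contrasts, the latter also for its fold, so nothing is read from these p-values.

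Between EMS-25 and wild type no member was called by limma, and 9 had an unadjusted p below 0.05. Over all features 0.37% were called lower and 0.779% higher in EMS-25. The choice of members kept their means within 25% of each other, which limits such calls, and nothing is read from the 0. The median log2 fold change was -0.01 for the members and 0.01 for all features tested.

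The call counts against the other strains depended on how the spread was estimated. Without the trend of the spread with level, 4 members were called against wild type and 5 against EMS-25. With 1 UV-715 library left out and the features kept as with all 6 libraries, 0 members were called against wild type without either UV-715 library, and 5 and 3 were called against EMS-25 without replicate 1 and replicate 2. Without wild-type replicate 2, the shallowest library, 30 were called against wild type. Without EMS-25 replicate 1 or 2, 17 and 23 were called against EMS-25.

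The IDs carry the form that the Trinity assembler writes, in which a cluster of contigs is divided into components and each component into genes. The assembler groups features into a component by shared sequence, but no sequence was examined here. Features of a component can be gene copies, alleles or fragments of a single transcript. Reads that match several of them must be divided among them. How that was done is not given in the sources used here, so the members that share a component are uncertain as separate genes.

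The 82 members fell in 78 clusters and 80 components. No cluster held more than 2 members, 4 clusters held 2, and 2 components held 2. A component with no other feature held 49 members, or 59.8%, against 66.7% of features with a mean of at least 30. A cluster with no other feature held 29 members, or 35.4%, against 41.6%. Clusters of 10 or more features held 12 members, or 14.6%, against 14.1%. By these counts the members were spread over the assembly much as other features of their level were, and no test was made of the difference.

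One of the shared components had only 2 features and both were members, the third and the seventh by level. The seventh had 519 and 469 in the wild-type libraries, 301 and 294 in those of UV-715 and 568 and 534 in those of EMS-25. In both features the EMS-25 libraries were the highest, and the UV-715 mean was 58.6% and 60.2% of the wild-type mean. In another cluster both features were members of separate components, one being the sixth by level, and the other had 82 and 91.3 in the wild-type libraries, 36.3 and 25.9 in those of UV-715 and 60.5 and 87.4 in those of EMS-25. The pair differed in depth of fall, at 62.9% and 35.9% of wild type.

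A further cluster held a pair of members with near-equal values in different components. One had 96.9 and 102 in the wild-type libraries, 44.6 and 44.9 in those of UV-715 and 88.0 and 83.0 in those of EMS-25. The other had 82.7 and 79.9 in the wild-type libraries, 37.6 and 37.9 in those of UV-715 and 85.4 and 81.1 in those of EMS-25. Both stood near the middle of the set, with UV-715 means 44.9% and 46.4% of the wild-type means.

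The other features of the members' components were not used in the choice, except that a feature meeting every term would itself be a member. There were 49 such component mates in 30 components, beside 31 members, and 45 passed the filter on low values. Against wild type limma called 8 mates lower and 3 higher in UV-715, or 24.4% of those tested, where 2.34% of all features were called lower and 1.87% higher. Against EMS-25 it called 6 lower and 2 higher, or 17.8%, beside 2.77% and 1.88%. Of the mates, 4 were called lower and 2 higher against both.

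The same counts were taken with a floor on the level. Levels above this floor were not matched between the mates and all features, so their shares are compared only roughly. Among the 22 mates with a mean of at least 30, 7 were called lower and 2 higher against wild type, where 7.32% and 6.13% of all features of this level were called. Against EMS-25 the counts were 6 and 1, beside 8.51% and 5.93%. In 13 of the 22 both UV-715 libraries were below the other 4 libraries, and in 4 both were above, where 22.3% and 22.2% of all features of this level were. The median log2 fold change of the 45 tested mates was -0.26 against wild type and -0.39 against EMS-25, and that of EMS-25 against wild type was 0.09.

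These counts too were sensitive to single libraries. With the features kept as with all 6 libraries, mates called against wild type fell from 11 to between 0 and 6 when any one library was left out, and those against EMS-25 from 8 to 1 without either UV-715 or either EMS-25 library. In the fit of the compared strains alone 7 mates were called against wild type, and without the filter on low values 5 were called against EMS-25.

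The component with the most lower mates had 11 features, 2 of them members. The more abundant member had 193 and 195 in the wild-type libraries, 88.2 and 71.9 in those of UV-715 and 225 and 191 in those of EMS-25. The other had 64.9 and 66.5, 39.3 and 41.4, and 62.5 and 65.3 in the same order. In both the UV-715 libraries lay apart from the other 4, as the choice required, and the wild-type and EMS-25 libraries overlapped.

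The leading mate of that component was more abundant than either member, with 1817 and 1500 in the wild-type libraries, 633 and 467 in those of UV-715 and 1234 and 1072 in those of EMS-25. Its log2 fold change was -1.60 (SE 0.17, limma adjusted p = 0.0083) against wild type and -1.08 (SE 0.17, limma adjusted p = 0.027) against EMS-25. It was no member because its EMS-25 mean of 1153 ± 115 was too far below its wild-type mean of 1659 ± 224 (SD, n = 2).

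Of the other 8 mates of that component, 1 more was called lower against both strains, 1 against wild type alone and 1 against EMS-25 alone. The remaining 5 were called against neither. Summed over the component, the mean was 2529 ± 231 in wild type, 1099 ± 159 in UV-715 and 1984 ± 151 in EMS-25 (SD, n = 2).

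A component of 2 features showed the same direction in both. Its member, the 17th by level, had means of 240.3 ± 7.86 in wild type, 94.9 ± 9.42 in UV-715 and 224 ± 23.1 in EMS-25 (SD, n = 2). Its mate had 493 and 513 in the wild-type libraries, 153 and 157 in those of UV-715 and 382 and 385 in those of EMS-25, so that the 3 strains did not overlap. The mate's log2 fold change was -1.70 (SE 0.044, limma adjusted p = 0.0002) against wild type and -1.31 (SE 0.044, limma adjusted p = 0.0005) against EMS-25. For the component sum the wild-type mean was 2.98 times that of UV-715, the largest such ratio among the 31 members with mates.

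A mate of the eighth member followed another pattern. It had 631 and 624 in the wild-type libraries, 64.4 and 53.8 in those of UV-715 and 43.1 and 70.1 in those of EMS-25, so it was low in both mutants, whose libraries overlapped. Its log2 fold change was -3.39 (SE 0.22, limma adjusted p = 0.0023) for UV-715 against wild type and 0.10 (SE 0.22, limma adjusted p = 0.88) for UV-715 against EMS-25. The eighth member itself was lower in UV-715 only, as the choice required.

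In other components mates rose. TRINITY_DN3384_c0_g2, the only mate of TRINITY_DN3384_c0_g1, was listed at 0 in both wild-type and both EMS-25 libraries and had 59.1 and 49.2 in UV-715. The value of its log2 fold change, 5.78 on the scale of the value plus 1 against either strain (limma adjusted p = 0.010 and 0.0094), depends on the added 1, and no fold is given. The UV-715 level of the mate, 54.1 ± 7.0, was near the wild-type level of the member, 56.9 ± 2.99 (SD, n = 2). The sum of both features was 56.9 ± 2.99 in wild type, 60.8 ± 7.74 in UV-715 and 54.5 ± 6.18 in EMS-25, and its log2 fold change was 0.09 (limma adjusted p = 0.74) against wild type and 0.15 (limma adjusted p = 0.58) against EMS-25. The largest fall in the set was therefore matched within its component by a rise of about the same size.

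TRINITY_DN6068_c0_g2 had 44.7 and 27.2 in the wild-type libraries, 83.5 and 80.2 in those of UV-715 and 33.7 and 33.3 in those of EMS-25. Its log2 fold change was 1.21 (SE 0.23, limma adjusted p = 0.0496) against wild type and 1.26 (SE 0.23, limma adjusted p = 0.040) against EMS-25, and the first call was lost in the fit with a replicate block (adjusted p = 0.059). The member beside it had means of 48.3 ± 1.82 in wild type, 19.7 ± 2.64 in UV-715 and 43.6 ± 4.25 in EMS-25. Together they summed to 84.3 ± 10.6, 102 ± 0.257 and 77.2 ± 4.50 in the same order, and the sum was not called against wild type (limma adjusted p = 0.20) or EMS-25 (limma adjusted p = 0.090).

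Another component had a member at 74.1 ± 4.04 in wild type, 45.3 ± 2.63 in UV-715 and 89.4 ± 12.8 in EMS-25 beside a more abundant mate. That mate had 370 and 352 in the wild-type libraries, 414 and 427 in those of UV-715 and 373 and 412 in those of EMS-25. The mate was highest in UV-715 but was not called against wild type (limma adjusted p = 0.13). These were the 3 components in which the rise of the mates from wild type to UV-715 was at least 50% of the member's fall. The rise exceeded that fall in each, at 108%, 160% and 208% of it in the order given.

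The fourth member had a mate that rose at a far lower level. That mate had 122 and 133 in the wild-type libraries, 164 and 174 in those of UV-715 and 133 and 138 in those of EMS-25, with a log2 fold change of 0.41 against wild type (SE 0.066, limma adjusted p = 0.032) and 0.32 against EMS-25 (SE 0.066, limma adjusted p = 0.063). The member alone fell from 2681 ± 95.1 to 1312 ± 22.5 (SD, n = 2).

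**Figure D5:**
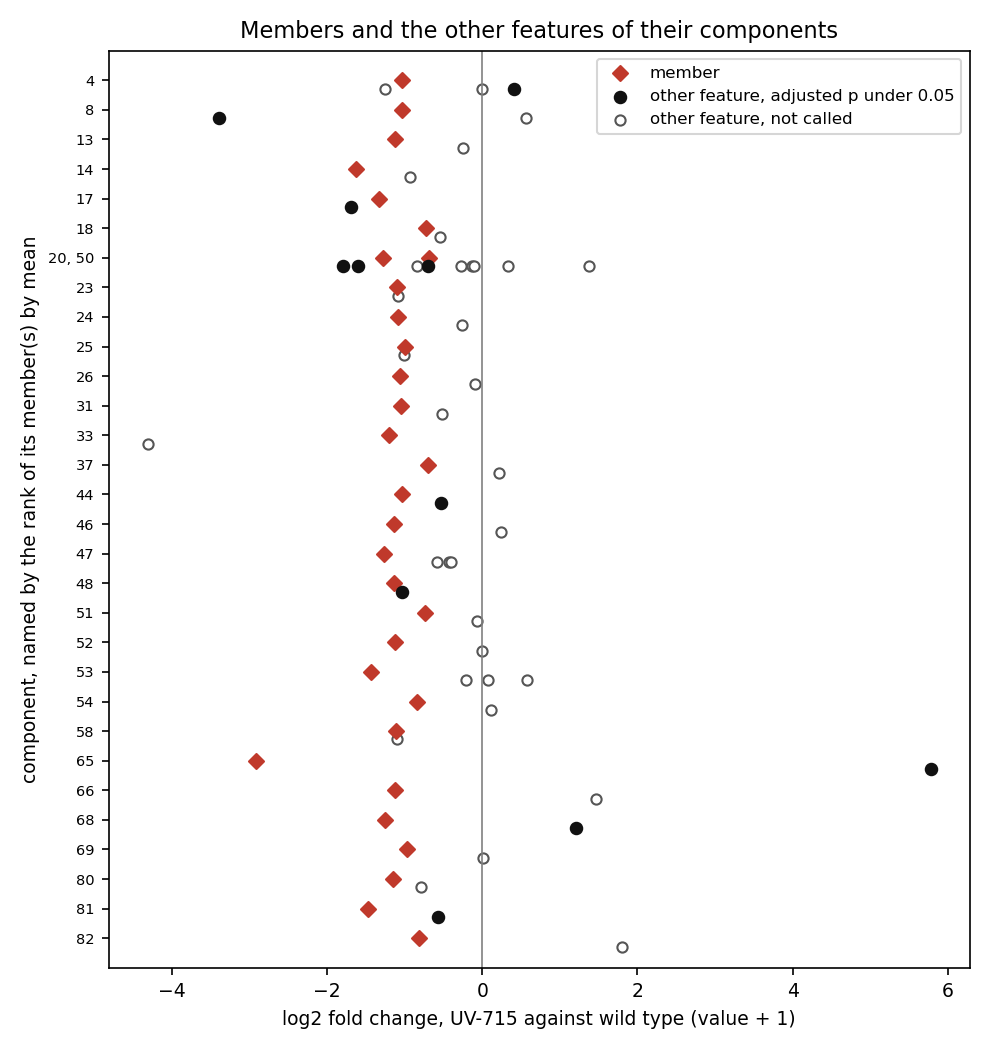
Each line of the y axis is a component that holds a member and at least 1 other feature, named by the rank of its member or members by level. The x axis gives the log2 fold change of UV-715 against wild type on the scale of the value plus 1, with members as red diamonds, called mates as filled circles and mates not called as open circles. Of the called mates 8 lie left of 0 and 3 right of it, and the point at 5.78 is the mate listed at 0 outside UV-715.

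Over all 31 members with mates, the summed signal of the mates was lower in UV-715 than in wild type for 21, higher for 9 and at 0 in both strains for 1. The ratio of the wild-type to the UV-715 mean was 0.83 to 2.98 with a median of 1.69 for the component sums, against a median of 2.19 for the same members alone. The component sum was at least 1.5-fold lower in UV-715 than in each of the other 4 libraries for 16 of the 31, and lower by any amount for 28. Each sum includes the member, which was chosen for its fall and was the larger part of its component for 17 of the 31. Nothing is therefore read from these counts. With the choice applied to component sums in place of features, 65 components met it, 64 of which held a member. For the 49 members that were the only feature of their component, the component sum is the member itself.

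Wider in the assembly, 306 features shared a cluster with a member but not its component, and 294 were tested. Against wild type limma called 15 lower and 3 higher in UV-715, or 6.12%, and against EMS-25 21 lower and 4 higher, or 8.5%. Among the 124 of them with a mean of at least 30, 14 were called lower and 2 higher against wild type, where 7.32% and 6.13% of all features of this level were called. Against EMS-25 the counts were 18 and 4, beside 8.51% and 5.93%. Their median log2 fold change was 0.00 against wild type and -0.05 against EMS-25.

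The number of members itself moved with the thresholds and the libraries. With a fold of at least 2 there were 20 members, and with a mean of at least 10 or 100 there were 163 or 28. With a wild-type to EMS-25 gap below 1.1-fold there were 53. Leaving out UV-715 replicate 1 gave 143 features, which held all 82, as leaving out a UV-715 library cannot remove a member. Without wild-type replicate 1 or 2 there were 74 or 90, which held 67 or 73 of the 82. Without EMS-25 replicate 1 or 2 there were 82 or 91, which held 71 or 72 of them. With every library set to the same sum 71 remained, all of them among the 82.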

How the data were processed

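The deposited table holds 1 value per assembled feature and library, a normalised expression signal scaled between libraries by the authors, with 3 strains of 2 libraries each. Per the submitters' processing notes, the tools were RSEM, edgeR, FastQC 0.11.5 and Trimmomatic 0.32, with no step assigned to any. No assembly or annotation was used here. The values are no counts, so no count model was used. Members were chosen by thresholds on these values (mean of at least 30, fold of at least 1.5, gap below 25%), and the members, lists and tests were chosen with earlier results of these data known. Features with at least 1 in at least 2 libraries (18096 kept, 504 left out) were fitted on log2(value + 1) by limma 3.58.1 (R 4.3.3) using an intensity trend, a term for strain alone and two-sided tests, and called at a Benjamini-Hochberg adjusted p below 0.05. The fit had 3 residual and 2.66 prior degrees of freedom and was tested on simulated data. Log2 fold changes understate the change of low features. Named by ID were the most abundant member, the member of largest fold, and the 2 component mates called higher against both strains. Relative depth came from 2359 features. Python 3.11.15, numpy 2.4.6, pandas 2.3.3 and matplotlib 3.10.9 did the rest. Alternatives were pseudocount, filter, trend, scaling, component sums, replicate block and leaving out each library, the last also with the features kept as with all 6, which was chosen after seeing the data.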

Additional observations from a re-analysis of the deposited data

Results flagged for a closer look

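The 8 component mates called between UV-715 and EMS-25 differ between the mutants by a direct test, limma's contrast of UV-715 with EMS-25. Of these, 6 were lower in UV-715, with log2 fold changes of -1.31, -1.21, -1.08, -0.73, -0.41 and -0.39. The values of -1.21, -1.08 and -0.39 belong to the component of 11 features, and that of -1.31 to the mate of the 17th member. The mate at -0.73 had 128 and 118 in the wild-type libraries, 101 and 104 in those of UV-715 and 166 and 174 in those of EMS-25, so that it was highest in EMS-25, and it was not called between UV-715 and wild type (limma adjusted p = 0.10). The mate at -0.41 had 319 and 359 in the wild-type libraries, 225 and 242 in those of UV-715 and 314 and 308 in those of EMS-25, with both UV-715 libraries below the other 4.

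Higher in UV-715 were TRINITY_DN6068_c0_g2 at 1.26 and TRINITY_DN3384_c0_g2 at 5.78, the latter listed at 0 outside UV-715. The assembler groups features of a component by shared sequence, which was not examined here, and the division of reads among them was not tested.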

How the results depend on the processing

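Members called lower against wild type (72) fell to 4 without the intensity trend, to 41 to 59 when a library was left out, and to 0 to 49 when the features were also kept as with all 6 libraries (44 and 30 without wild-type replicate 1 and 2). Against EMS-25 (68) these values were 5, 36 to 67 and 3 to 60 (17 and 23 without EMS-25 replicate 1 and 2). Mates called against wild type (11) were 3 without the trend, 7 with only the strains compared, 4 to 8 with a library left out and 0 to 6 with the features kept. Mates called against EMS-25 (8) were 5 without the filter on low values, 2 without the trend, 2 to 8 with a library left out and 1 to 6 with the features kept. Between EMS-25 and wild type the component sum of 1 member was called, where the main fit called no member itself. The number of members (82) was 20 at a fold of 2, 163 and 28 at a mean of 10 and 100, 53 at a gap of 1.1-fold, and 74 to 143 with a library left out. With component sums TRINITY_DN3384_c0_g1 reversed, to 0.09 and 0.15, as its mate is added. With each setting counted once for the contrast with wild type and once for that with EMS-25, TRINITY_DN6854_c0_g1 kept its call in 33 of 38. TRINITY_DN3384_c0_g1 kept its call in 32, lost it in 4 and reversed in the 2 with component sums. TRINITY_DN6068_c0_g2 lost its call in 27 of 38. TRINITY_DN3384_c0_g2 kept its call in 24 settings and lost it in 10. It had no value where a UV-715 library was left out and the filter applied again, as too few libraries then reached 1. Apart from the component sums, the cause of these changes was not tested.

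Same-numbered libraries were not taken as pairs, as their deviations correlated by -0.08, 0.14 and 0.11. A replicate block gave 62 and 66 members called lower against wild type and EMS-25, 0 between EMS-25 and wild type, and 10 and 11 mates. The replicate 2 libraries were the shallower ones in each strain, and the part of depth in the wider spread of members with a mean below 100 was not tested.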
